A study of Mus musculus with 15 samples.

Results

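NRF2, encoded by Nfe2l2, and 9 genes known as its targets were followed through ultraviolet-induced skin lesions of the mouse. The genes were taken by symbol from the deposited tables, and all 10 were found among 24027 symbols common to them. They were Nfe2l2, Nqo1, Hmox1, Gclc, Gclm, Slc7a11, Gsr, Srxn1, Txnrd1 and G6pdx. All 10 also received an adjusted p in each of them, so none was lost to the filter on low counts.

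NRF2 is the transcription factor that answers oxidants and electrophiles. In resting cells it is held by KEAP1 and sent for degradation through the CUL3 ubiquitin ligase, and modification of KEAP1 lets it build up, pair with a small MAF protein and bind antioxidant response elements. Its targets make and recycle glutathione, recycle thioredoxin, supply NADPH and clear quinones and haem. In keratinocytes the pathway is known for protection against ultraviolet light, and its activity depends largely on the amount of protein, which RNA does not measure.

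The skin came from female SKH1 mice, a hairless strain, aged 6 to 8 weeks when irradiation began. Ultraviolet B was given at 500 J/m2, 5 times weekly over 10 weeks, which produces actinic keratoses, lesions that can precede squamous cell carcinoma. The 5 groups of 3 libraries each were, in mice given a placebo cream, lesional skin, perilesional skin, non-lesional skin and skin never exposed to UV, and, in mice given GZ21T, lesional skin. Both creams were applied at 0.25 g on 5 days per week, and there was no group of GZ21T skin without lesions. What GZ21T is, and how the cream relates in time to the irradiation, are not stated in the labels. In the headers a group is named back, which is taken here as the unexposed skin. The headers do not say whether back is a body site. Body site and exposure therefore cannot be told apart in any comparison with that group. The labels do not state that each numbered library is a separate mouse, so the p-values reflect variation among these libraries, part of which may be technical.

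The deposited files hold fold changes and tests, with no value per library. Values are therefore given as log2 fold changes with their standard errors (SE), and whether single libraries overlap between groups could not be seen. The depth of each library is unknown. The SE differed widely among the 10 genes, from 0.13 for G6pdx to 0.63 for Nqo1 in lesional over non-UV skin, so the same fold change was more easily called for G6pdx. A gene was called when its Benjamini-Hochberg adjusted p was under 0.05. The keratinocyte genes Krt5, Krt14, Krt1 and Krt10 passed the filter on low counts in lesional over non-UV skin and in GZ21T over placebo lesions, as skin should, though no level could be read. In bulk skin, fewer cells of a type and less RNA per cell cannot be told apart.

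Because NRF2 acts through antioxidant response elements, promoters were searched for the core letters TGACNNNGC on both strands. RefSeq promoter windows on GRCm38.p6, from 250 bases before a transcription start to 50 after it, were at hand for 7 of the 10 genes, and the genes Hmox1, Gclc and Gsr are named only. The core was present in the window of 5 of these 7 genes, while 14% of all 27025 genes with a window had it. The windows of Nqo1 and Slc7a11 did not contain these letters. In Srxn1 the match lay after the start. The 4 matches before a start are shown because these genes include the members called lower in lesions (Txnrd1), called higher there (Gclm and Nfe2l2) and called higher under GZ21T (G6pdx). Each is read 5′ to 3′ on the gene's strand, with the 9 matching letters in capitals.
Nfe2l2: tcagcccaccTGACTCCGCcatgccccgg
Gclm: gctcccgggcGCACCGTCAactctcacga
Txnrd1: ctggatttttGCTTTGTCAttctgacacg
G6pdx: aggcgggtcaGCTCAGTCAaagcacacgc

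The Nfe2l2 stretch lies at chr2:75704885-75704913 on the minus strand, and the match reads forward, its first letter 240 bases before the start. In Gclm, at chr3:122245413-122245441 on the plus strand, the match reads on the opposite strand and begins 134 bases before the start. Txnrd1 has 3 annotated starts, and the match was before the second of them, at chr10:82859104-82859132 on the plus strand. The G6pdx match, 57 bases before the RefSeq start, lies at chrX:74428919-74428947 on the minus strand. A match of letters is a description of sequence and does not show that NRF2 binds there.

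Lesions were set against skin that had never been irradiated. Nqo1, Gclm and Nfe2l2 itself rose, Txnrd1 fell, and the other 6 genes did not pass the test. Of the 10 genes 4 were called, 3 higher and 1 lower, where 18.3% of all 15201 genes tested were called in either direction, 10.2% higher and 8.17% lower. Those shares were 1543 genes higher and 1242 lower, and 1244 and 1607 after centring on the median gene. At an unadjusted p under 0.05 the share of all genes was 31.4%, and 5 of the 10 were past it. The 10 genes had a median log2 fold change of 0.50, beside 0.08 over all genes tested.

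Nqo1, the quinone reductase that serves as the standard readout of NRF2 activity, had the largest fold change of the 10. It rose by 1.98 ± 0.63 (SE; adjusted p = 0.0149) on the log2 scale in the authors' deposited table, which is 3.94-fold, with a 95% interval from 0.75 to 3.21. The gene lies at chromosome 8, 107388225 to 107403206, minus strand, in GENCODE M21 on GRCm38. The 2 subunits of glutamate-cysteine ligase, which makes the first bond of glutathione, differed in their values. The modifier subunit Gclm rose by 1.52 ± 0.36 (adjusted p = 0.000665, from the authors' deposited table), or 2.88-fold, and had the smallest adjusted p of the 10. The catalytic subunit Gclc stood at 0.24 ± 0.22 (adjusted p = 0.467, from the authors' deposited table). The difference between the subunits was not tested. Gclm lies at chromosome 3, 122245557 to 122270732, plus strand.

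The transcript of the factor itself, Nfe2l2, rose by 0.57 ± 0.22 (adjusted p = 0.0462, from the authors' deposited table), a 1.48-fold change close to the threshold. Its locus is on chromosome 2, 75675513 to 75704641, minus strand. Slc7a11, the cystine importer that feeds glutathione synthesis, stood at 1.05 ± 0.62 (adjusted p = 0.235, from the authors' deposited table), with an interval from -0.16 to 2.27 that covers both no change and a large one. Glutathione reductase, Gsr, which returns oxidised glutathione to its reduced form, stood at 0.66 ± 0.29 (adjusted p = 0.0976, from the authors' deposited table). Hmox1, which opens the haem ring, stood at 0.44 ± 0.32 (adjusted p = 0.347, from the authors' deposited table). Sulfiredoxin, Srxn1, which repairs overoxidised peroxiredoxins, stood at 0.30 ± 0.43 (adjusted p = 0.68, from the authors' deposited table). These 4 genes had positive values that did not pass the test.

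Txnrd1, the cytosolic thioredoxin reductase, went the other way. It fell by 0.56 ± 0.19 (adjusted p = 0.0262) on the log2 scale in the authors' deposited table, to 0.676 of its level in non-UV skin. Txnrd1 lies at chromosome 10, 82833951 to 82897712, plus strand, where 1305 bases overlap Eid3 on the same strand. Eid3 stood at -0.55 (adjusted p = 0.282, from the authors' deposited table). Whether both genes share reads was not checked, and any shared reads would leave the value of Txnrd1 less certain. G6pdx, glucose-6-phosphate dehydrogenase, which opens the pentose phosphate route to NADPH, stood at 0.05 ± 0.13 (adjusted p = 0.844, from the authors' deposited table), and its interval from -0.21 to 0.30 was the narrowest of the 10.

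When the null spread of the Wald statistic was estimated from all genes, at 1.92 in place of the theoretical 1, none of the 4 genes stayed called. That estimate takes in the called genes too, and only 14 of 15201 genes (0.0921%) were called with it. It therefore cannot set these 4 genes apart from others. Nfe2l2 also lost its call after centring on the median gene and with no filter on low counts, with an adjusted p from 0.0376 to 0.958 over its alternatives.

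**Figure D1:**
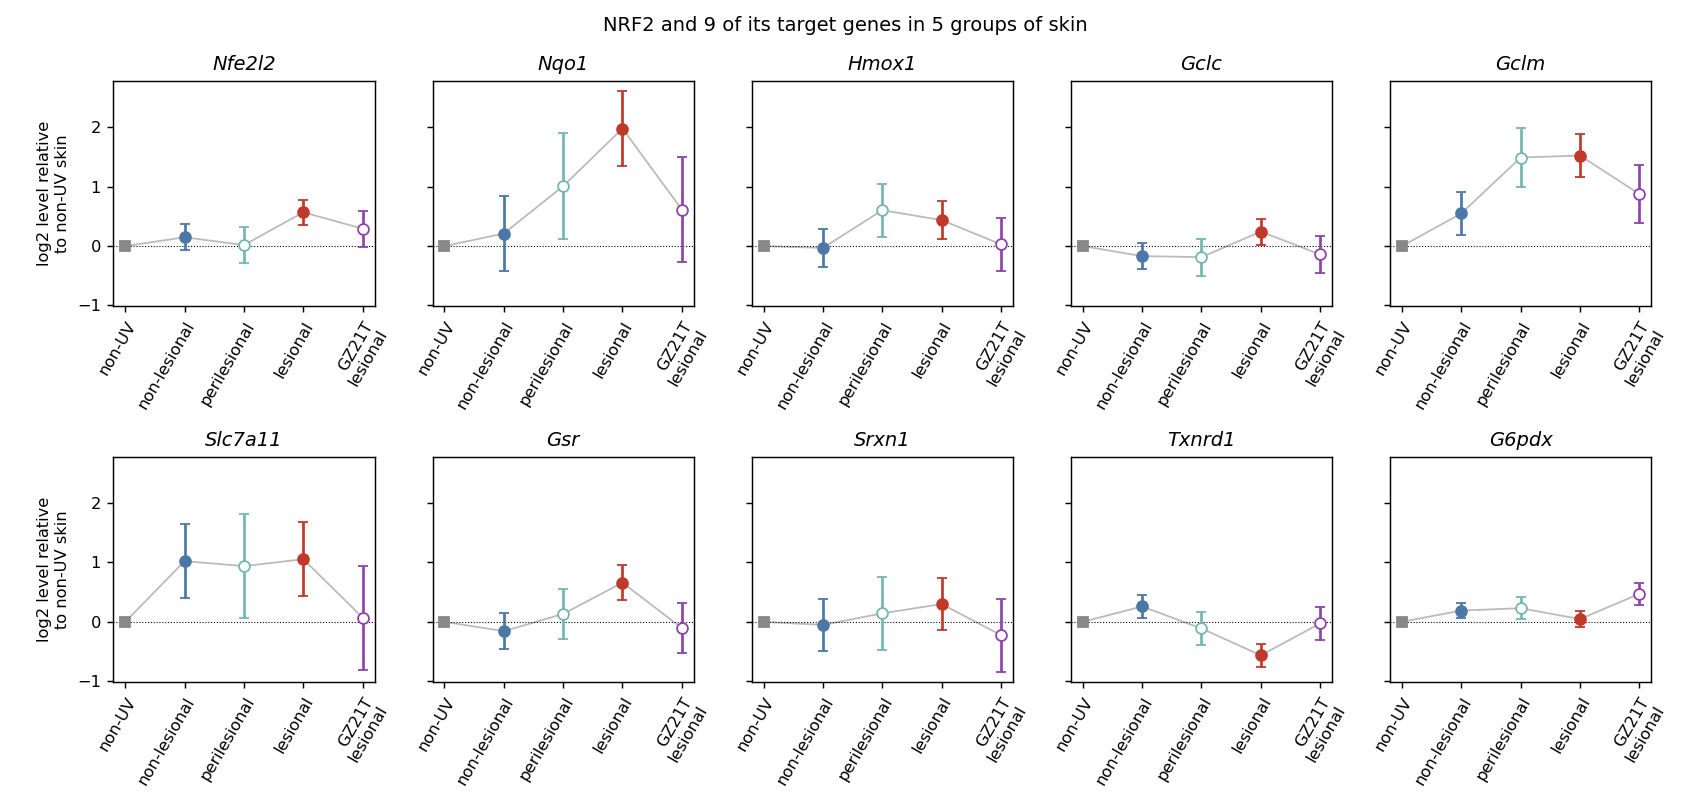
Log2 level of each gene (y axis) in the 5 groups of skin (x axis), relative to non-UV skin, which is set at 0 and drawn as a square. Bars are 1 SE of the difference from non-UV skin, and open circles mark sums of 2 deposited fold changes, whose SE is an upper bound. Nqo1 is highest in placebo lesions at 1.98, Gclm is at 1.49 in perilesional and 1.52 in lesional skin, and Txnrd1 is lowest in placebo lesions at -0.56.

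The sites between non-UV skin and lesion were compared step by step, and no step had a call among the 10 genes. In non-lesional over non-UV skin, 0 of the 10 genes were called by the authors' DESeq2 test, and 0 had an unadjusted p under 0.05, where 1.66% of 14124 genes were called and 10% had such a p. Their adjusted p ran from 0.643 to 0.994. The largest value was that of Slc7a11, at 1.02 ± 0.62 (adjusted p = 0.643, from the authors' deposited table). Its levels in non-lesional, perilesional and lesional placebo skin were 1.02, 0.94 and 1.05 relative to non-UV skin, with SE of 0.62, up to 0.87 and 0.62.

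In perilesional over non-lesional skin, 0 of 10 were called, and 2 had an unadjusted p under 0.05, where 0.112% of 15201 genes were called by DESeq2, 0.0921% higher, and 7.83% had such a p. Those 2 were Gclm, at 0.94 ± 0.34 (adjusted p = 0.372), and Hmox1, at 0.63 ± 0.31 (adjusted p = 0.614, from the authors' deposited table). For Gclm, perilesional over non-UV skin summed to 1.49 (SE at most 0.50, adjusted p = 0.134), beside 1.52 in lesions. In that comparison 0 of 10 genes were called by the normal test, where 0.687% of 14122 genes were. With the summed variance of both fold changes halved, the adjusted p of Gclm was 0.00116, and 9.62% of all genes were called. Hmox1 was the 1 gene of the 10 whose highest level was in perilesional skin, at 0.60 (SE at most 0.45, adjusted p = 0.732) over non-UV skin. Hmox1 is strongly expressed by macrophages that clear red blood cells, and macrophage markers in perilesional over non-lesional skin had a median of 0.91, with 0 of 13 called. Over non-UV skin their median was 0.04, with 0 of 11 called. Sebaceous gland markers had a median of 2.31 over non-lesional skin, with 3 of 11 higher, and of 1.61 over non-UV skin, with 0 of 11 called. The part of these cells in the values of Gclm and Hmox1 was not tested.

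Lesional over perilesional skin was derived from 3 deposited comparisons, and 0 of 10 genes were called by the normal test of the derived contrast, where 0.68% of 14121 genes were. At an unadjusted p under 0.05 there were 3. Nfe2l2 stood at 0.55 ± 0.21 (adjusted p = 0.253), Gclc at 0.43 ± 0.21 (adjusted p = 0.434) and Txnrd1 at -0.45 ± 0.19 (adjusted p = 0.325). Gclm stood at 0.03 ± 0.33 (adjusted p = 0.991), and Nqo1 at 0.97 ± 0.61 (adjusted p = 0.573).

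Lesional over non-lesional skin, also derived, likewise had 0 of 10 called, and 2 at an unadjusted p under 0.05, with 0 of 14122 genes called (0%) under the upper bound of the SE. Txnrd1 had the smallest adjusted p, at -0.82 (SE at most 0.27, adjusted p = 0.474). With the summed variance of both fold changes halved, its adjusted p was 0.00396, and 5.11% of all genes were called. Nqo1 stood at 1.77 (SE at most 0.90, adjusted p = 0.665) in the same comparison.

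Ordering the 5 groups by level for each gene gives 40 neighbouring pairs, of which 35 were covered by a comparison and 0 were called. Neighbours are the closest groups in the same levels, so calls were unlikely from the start, and no conclusion is drawn from the 0. Placebo lesions were the highest group for 7 of the 10 genes, an order that describes these fold changes and was not tested as such. How often they are the highest group over all genes was not counted, so this order cannot set the 10 genes apart.

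Treatment was examined in lesions, with GZ21T set over placebo. G6pdx rose, and the other 9 genes did not pass the test. In this comparison 1 of 10 was called, where 3.61% of 10899 genes were called in either direction, 1.31% higher and 2.29% lower. These were 143 genes higher and 250 lower, and 201 and 142 after centring. At an unadjusted p under 0.05 there were 4 of the 10, and 22.9% of all genes. The 10 genes had a median log2 fold change of -0.47, beside -0.06 over all genes tested, with 8 negative and 2 positive.

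G6pdx rose by 0.42 ± 0.13 (adjusted p = 0.0406) on the log2 scale under GZ21T in the authors' deposited table, a 1.34-fold change. The gene lies on chromosome X, 74409483 to 74429194, minus strand, and overlaps Ikbkg on the opposite strand over all 19712 bases. The library kit marks strand but the counting setting is not given, so reads of these genes may not be told apart. Ikbkg stood at 0.08 (adjusted p = 0.774, from the authors' deposited table). Txnrd1 stood at 0.54 ± 0.19 (adjusted p = 0.0788, from the authors' deposited table), the other positive value.

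Nqo1 stood at -1.36 ± 0.62 (adjusted p = 0.159, from the authors' deposited table), which places it at the 1.2 percentile of all genes tested by fold change, yet with an interval from -2.58 to -0.15. Gsr, at -0.76 ± 0.29 (adjusted p = 0.0957, from the authors' deposited table), came closest to the threshold among the negative values. Slc7a11 stood at -0.98 ± 0.62 (adjusted p = 0.336), Gclm at -0.65 ± 0.34 (adjusted p = 0.233) and Srxn1 at -0.52 ± 0.44 (adjusted p = 0.49, from the authors' deposited table). Hmox1 was at -0.41 ± 0.32 (adjusted p = 0.447), Gclc at -0.38 ± 0.22 (adjusted p = 0.285) and Nfe2l2 at -0.28 ± 0.21 (adjusted p = 0.447, from the authors' deposited table).

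The call of G6pdx ended with no filter on low counts, where 1.11% of all genes were called. It also ended when the null spread was estimated from all genes, at 1.64, where 0 of 10899 genes were called. Its adjusted p ran from 0.0197 to 0.98 over the alternatives. At an adjusted p under 0.1, Txnrd1 and Gsr were called as well, in opposite directions, where 10% of all genes were called.

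**Figure D2:**
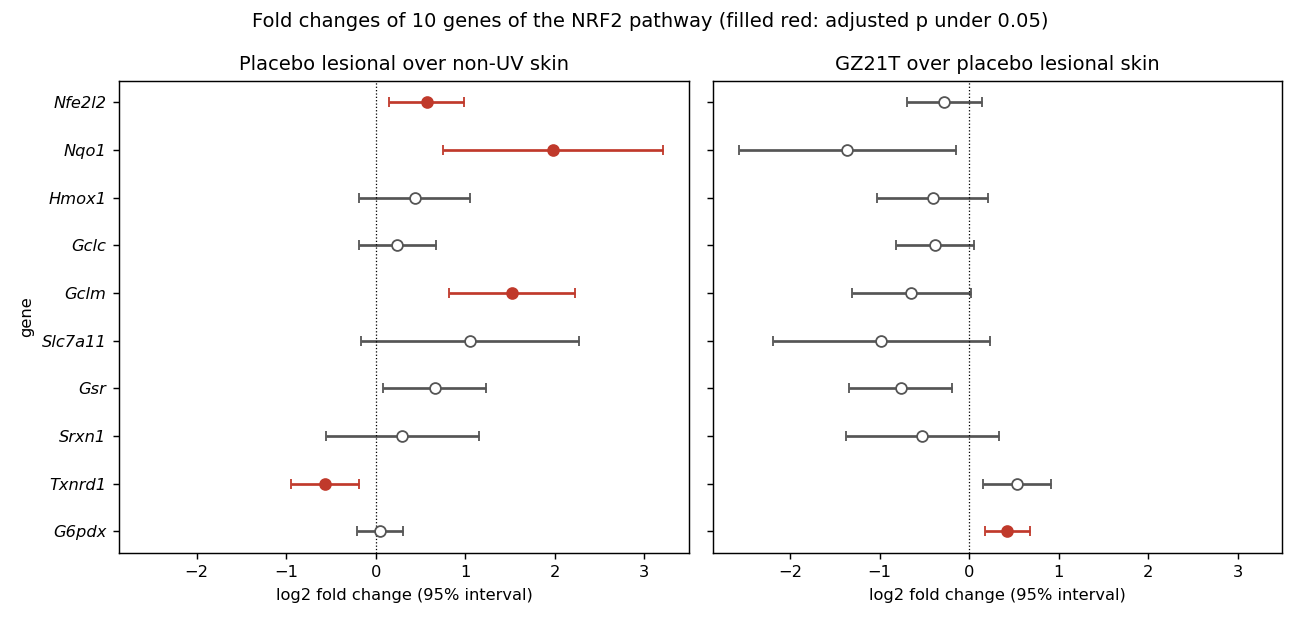
Log2 fold change (x axis) of each of the 10 genes (y axis) in placebo lesional over non-UV skin (left) and in GZ21T over placebo lesional skin (right), with 95% intervals from the SE. Filled red points had an adjusted p under 0.05, which holds for Nfe2l2, Nqo1, Gclm and Txnrd1 on the left and for G6pdx on the right.

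Both comparisons hold the same placebo lesions, with opposite sign, so values that oppose each other between them are not independent. Treated lesions were therefore also set against groups that leave the placebo lesions out. Over placebo non-lesional skin, 0 of 10 genes and 0 of 10899 genes (0%) were called by the normal test of the derived contrast, and 1 of the 10 had an unadjusted p under 0.05. That gene was G6pdx, at 0.28 ± 0.13 (adjusted p = 0.9999). Nqo1 stood at 0.40 ± 0.63, Gclm at 0.33 ± 0.35 and Txnrd1 at -0.29 ± 0.19, each with an adjusted p of 0.9999. Slc7a11 stood at -0.95 ± 0.62 (adjusted p = 0.9999), with an interval from -2.16 to 0.26. The spread of the Wald statistic over all genes was 0.828 in this contrast, under the theoretical 1. With that spread 10 of 10899 genes (0.0918%) and 0 of the 10 were called.

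Over non-UV skin, treated lesions had 0 of 10 called by the normal test and 1 at an unadjusted p under 0.05, where 0.606% of 10899 genes were called, 0.486% higher and 0.119% lower. G6pdx stood at 0.47 (SE at most 0.18, adjusted p = 0.389). With the summed variance of both fold changes halved, its adjusted p was 0.0108, and 4.89% of all genes were called. Gclm stood at 0.88 (SE at most 0.49, adjusted p = 0.879) and Nqo1 at 0.62 (SE at most 0.88, adjusted p = 0.999). Txnrd1 stood at -0.03 (SE at most 0.27), with an interval from -0.57 to 0.51.

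Regulators around NRF2 were set beside all genes, and the difference in share was not tested. Of 17 regulators tested in lesional over non-UV skin 2 were higher and none lower (11.8% called, beside 18.3% of all genes). Both encode proteins that are not core parts of the degradation complex. Dpp3, a peptidase that can compete with NRF2 for KEAP1, rose by 0.51 ± 0.15 (adjusted p = 0.00976), and the arginine methyltransferase Prmt1 rose by 0.83 ± 0.28 (adjusted p = 0.0205, from the authors' deposited table). Keap1 stood at 0.22 ± 0.16 (adjusted p = 0.362) and Cul3, the scaffold of the ligase, at 0.09 ± 0.26 (adjusted p = 0.844, from the authors' deposited table). Bach1, a repressor that occupies the same elements, stood at 0.15 ± 0.18 (adjusted p = 0.595) and Sqstm1, an autophagy adaptor that can sequester KEAP1, at 0.38 ± 0.41 (adjusted p = 0.554, from the authors' deposited table). The small MAF partners Mafg, Maff and Mafk stood at -0.21 ± 0.22, 0.53 ± 0.45 and 0.02 ± 0.24 (adjusted p = 0.543, 0.434 and 0.968, from the authors' deposited table), and Mafk turned sign on centring. Nfe2l1, a related factor, stood at 0.15 ± 0.26 (adjusted p = 0.74, from the authors' deposited table). Under GZ21T 0 of 16 regulators were called, where 3.61% of all genes were. Keap1 stood there at -0.28 ± 0.16 (adjusted p = 0.29, from the authors' deposited table).

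Of 20 further genes of the thioredoxin and peroxiredoxin system 6 were higher and 1 lower in lesional over non-UV skin (35% called, beside 18.3% of all genes), with a median of 0.45. Txn1, the thioredoxin that TXNRD1 reduces, rose by 2.76 ± 0.45 (adjusted p = 2.74e-07, from the authors' deposited table), so enzyme and substrate transcripts moved in opposite directions. The peroxiredoxin Prdx5 rose by 0.93 ± 0.24 (adjusted p = 0.00238), and the thioredoxin-like Txndc17 by 1.13 ± 0.33 (adjusted p = 0.0088, from the authors' deposited table). Sesn1, a stress-induced sestrin, fell by 0.92 ± 0.22 (adjusted p = 0.0011, from the authors' deposited table). Under GZ21T, Txn1 fell by 1.48 ± 0.45 (adjusted p = 0.0406, from the authors' deposited table). It was the 1 gene called of 17 (5.88%, beside 3.61% of all genes). The mitochondrial reductase Txnrd2 and the related Txnrd3 stood at 0.05 ± 0.58 (adjusted p = 0.97) and 0.35 ± 0.22 (adjusted p = 0.267) in lesional over non-UV skin, by the authors' deposited table.

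Of 19 other genes of NADPH supply 8 were higher, none lower and 11 not called in lesional over non-UV skin, where G6pdx did not pass the test either. The 42.1% called stood beside 10.2% of all genes called higher, and the list's median was 0.58. Transketolase, Tkt, of the later pentose phosphate route, rose by 1.42 ± 0.27 (adjusted p = 1.24e-05), and the mitochondrial malic enzyme Me2 by 1.75 ± 0.41 (adjusted p = 0.000629, from the authors' deposited table). The folate enzymes Aldh1l1 and Aldh1l2 rose by 2.12 ± 0.43 (adjusted p = 4.85e-05) and 2.25 ± 0.46 (adjusted p = 7.72e-05, from the authors' deposited table). Under GZ21T 2 of 17 were lower and none higher (11.8% called, beside 3.61% of all genes). Me2 fell by 1.46 ± 0.40 (adjusted p = 0.0238), and the NAD kinase Nadk by 0.83 ± 0.20 (adjusted p = 0.00747, from the authors' deposited table), where G6pdx alone of the 10 genes rose.

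Genes that use glutathione changed in both directions in lesional over non-UV skin. Of 20 glutathione synthesis and use genes 3 were higher and 2 lower (25% called, beside 18.3% of all genes), with a median of -0.03. Glutaredoxin, Glrx, rose by 1.76 ± 0.38 (adjusted p = 0.000208) and the glyoxalase Glo1 by 1.26 ± 0.32 (adjusted p = 0.00173, from the authors' deposited table). The mitochondrial Glrx2 fell by 0.74 ± 0.21 (adjusted p = 0.00613, from the authors' deposited table). Glrx was already higher in non-lesional over non-UV skin, at 1.43 ± 0.39 (adjusted p = 0.0193, from the authors' deposited table).

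Of 19 glutathione transferases 3 were higher and 4 lower in lesional over non-UV skin (36.8% called, beside 18.3% of all genes). Gsta4, which conjugates lipid aldehydes, rose by 3.41 ± 0.92 (adjusted p = 0.00348) and Gsto1 by 1.43 ± 0.32 (adjusted p = 0.000297), whereas Gsta2 fell by 2.14 ± 0.68 (adjusted p = 0.0149) and Gstm2 by 1.27 ± 0.38 (adjusted p = 0.00832, from the authors' deposited table). These genes belong to families of similar sequence, so reads shared between copies may leave them uncertain. Mgst1, a microsomal transferase abundant in the sebaceous gland, was called higher in perilesional over non-lesional skin, at 2.25 ± 0.56 (adjusted p = 0.0479, from the authors' deposited table).

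Of 30 genes of quinone, aldehyde and drug metabolism 4 were higher and 2 lower in lesional over non-UV skin, and the 20% called was near the 18.3% of all genes. The aldo-keto reductase Akr1b8 rose by 2.09 ± 0.39 (adjusted p = 1.29e-05), the cytochrome reductase Por by 1.10 ± 0.21 (adjusted p = 1.03e-05) and Cyp1a1, the classic target of the aryl hydrocarbon receptor, by 3.52 ± 1.07 (adjusted p = 0.011, from the authors' deposited table). Epoxide hydrolase, Ephx1, fell by 1.39 ± 0.35 (adjusted p = 0.00137, from the authors' deposited table). Akr1b8 was also higher in lesional over perilesional skin, at 1.46 ± 0.38 (adjusted p = 0.0348) in the derived contrast. Nqo2, the relative of Nqo1, stood at -0.15 ± 0.54 (adjusted p = 0.881, from the authors' deposited table). Under GZ21T the glucuronosyltransferase Ugt1a7c rose by 1.27 ± 0.36 (adjusted p = 0.0278, from the authors' deposited table). It was the 1 gene called of 25 (4%, beside 3.61% of all genes).

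Of 17 haem and iron genes 2 were higher and 3 lower in lesional over non-UV skin (29.4% called, beside 18.3% of all genes). The ferritin light chain Ftl1 fell by 1.44 ± 0.45 (adjusted p = 0.0134, from the authors' deposited table), whereas the manganese and zinc importer Slc39a14 rose by 1.29 ± 0.30 (adjusted p = 0.000631). Both ferritin chains were lower already in non-lesional over non-UV skin, Ftl1 at -2.23 ± 0.45 (adjusted p = 0.000234) and Fth1 at -1.40 ± 0.34 (adjusted p = 0.00524, from the authors' deposited table). Macrophage markers, cells rich in ferritin, had a median of -0.68 in that comparison. Of 11, 1 was higher and 2 lower (27.3% called, beside 1.66% of all genes), and their part was not tested. Ferritins have processed pseudogenes, which may share their reads. Hmox2, the constitutive relative of Hmox1, stood at 0.60 ± 0.32 (adjusted p = 0.177) in lesional over non-UV skin, by the authors' deposited table.

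Metallothioneins, metal-binding scavengers of oxidants, were among 15 genes of superoxide and peroxide removal. Of the 15, 1 was higher and 1 lower in lesional over non-UV skin (13.3% called, beside 18.3% of all genes). Mt1 rose by 0.88 ± 0.32 (adjusted p = 0.035) there, in the authors' deposited table. Under GZ21T Mt1 fell by 1.42 ± 0.32 (adjusted p = 0.00554) and Mt2 by 1.28 ± 0.34 (adjusted p = 0.0192, from the authors' deposited table). These were 2 of 13 (15.4%, beside 3.61% of all genes). Of 10 export pumps and transporters 2 were higher and 4 lower in lesional over non-UV skin (60% called, beside 18.3% of all genes). The export pump Abcc5 fell by 1.37 ± 0.30 (adjusted p = 0.000174) and the glycine transporter Slc6a9 by 1.08 ± 0.28 (adjusted p = 0.0025, from the authors' deposited table). The pump Abcg2 rose by 1.45 ± 0.45 (adjusted p = 0.0129, from the authors' deposited table). The amino acid exchanger Slc7a5 rose by 1.23 ± 0.32 (adjusted p = 0.00243) in lesions and fell by 1.48 ± 0.32 (adjusted p = 0.00356) under GZ21T, in the authors' deposited tables.

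Slc7a11 is a target of ATF4, the factor of amino acid starvation, as well as of NRF2. Of 24 genes of the ATF4 list 13 were higher and 2 lower in lesional over non-UV skin (62.5% called, beside 18.3% of all genes, median 0.74). Atf4 rose by 0.73 ± 0.26 (adjusted p = 0.0328), the pseudokinase Trib3 by 1.75 ± 0.55 (adjusted p = 0.0143), asparagine synthetase, Asns, by 1.48 ± 0.41 (adjusted p = 0.00421) and the serine synthesis enzyme Psph by 1.23 ± 0.25 (adjusted p = 5.35e-05, from the authors' deposited table). Chac1, which degrades glutathione, stood at -0.45 ± 0.75 (adjusted p = 0.724) and Ddit3 at -0.60 ± 0.34 (adjusted p = 0.213, from the authors' deposited table). The neutral amino acid transporter Slc1a4 fell by 1.74 ± 0.32 (adjusted p = 6.89e-06, from the authors' deposited table). Under GZ21T 0 of 23, with a median of -0.45, were called, where 3.61% of all genes were. Trib3 stood at -1.41 ± 0.55 (adjusted p = 0.0986, from the authors' deposited table).

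**Figure D3:**
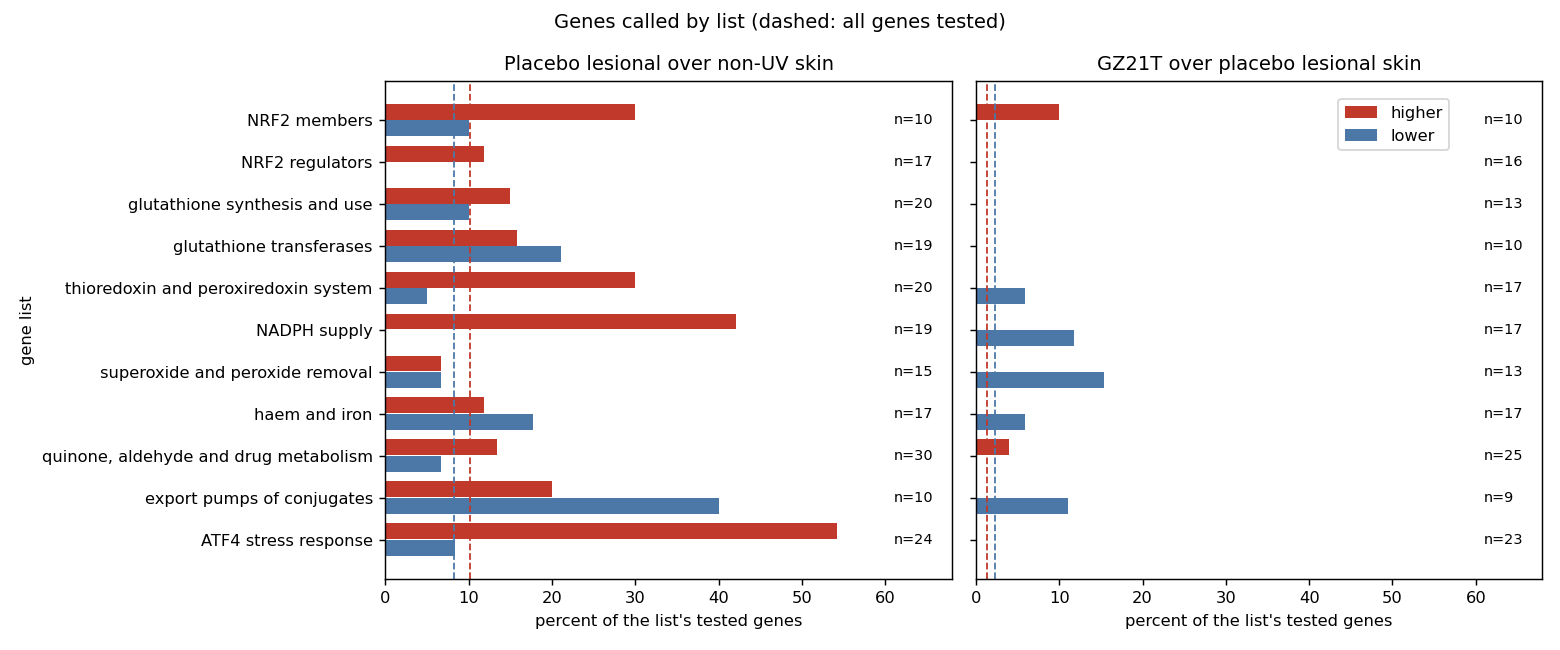
Share of each list's tested genes called at an adjusted p under 0.05 (x axis, percent) by list (y axis), higher in red and lower in blue, in placebo lesional over non-UV skin (left) and GZ21T over placebo lesional skin (right). Dashed lines give the shares over all genes tested, 10.2% higher and 8.17% lower on the left and 1.31% and 2.29% on the right, and n is the number of genes tested.

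Markers of several cell types were counted in the same comparisons. Of all genes, 18.3% were called in lesional over non-UV skin and 3.61% under GZ21T. In lesional over non-UV skin, suprabasal keratinocyte markers were higher for 1 of 10 and lower for 4 (50% called). Basal markers were higher for 1 of 8 and lower for 3 (50%). Sebaceous markers were higher for 6 of 11 (54.5%), and macrophage markers for 1 of 13 (7.69%). Hair follicle markers were lower for 4 of 16 (25%), with a median of -2.23. Endothelial markers were higher for 3 of 9 (33.3%), with a median of 2.50. Neutrophil markers were higher for 4 of 7 and lower for 1 (71.4% called), with a median of 1.52. The higher ones were S100a8, S100a9, Cxcr2 and Mmp9, and S100a8 and S100a9 also belong to the stress keratin and S100 list. Il1r2 was lower at -2.41 ± 0.42, and Csf3r and Mpo, at 0.59 ± 1.05 and 0.22 ± 1.65, were not called. Red blood cell markers were higher for 1 of 6 (16.7%, near the share of all genes), with a median of 3.16. The 1 called was the haemoglobin gene Hba-a1 at 6.82 ± 1.49 (adjusted p = 0.000208, from the authors' deposited table). Hbb-bt and Hbb-b2, both counted in the 6, had identical values of 3.451 ± 2.175. Stress keratin and S100 genes were higher for 16 of 17 (94.1%). Under GZ21T, suprabasal markers were higher for 4 of 10 (40%), beside the rise of G6pdx. Krt1, among them, stood at 1.42 ± 0.38 (adjusted p = 0.0195, from the authors' deposited table). Of 9 red blood cell markers only 3 were tested under GZ21T, and all 3 were lower. Hba-a2, among them, stood at -31.2 ± 5.89, too large to be read as a fold change. Neutrophil markers, S100a8 and S100a9 among them, had a median of -1.97, with 0 of 5 called. The part of these cells in the values of the 10 genes was not tested.

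The 3 genes of the pathway with the widest range over the 5 groups were Nqo1, Gclm and Slc7a11, at 1.98, 1.52 and 1.05 on the log2 scale. Among 10889 other genes tested in every table, those nearest in level over the 5 groups, by Euclidean distance on the log2 scale, were named for each. Nearest to Nqo1 were Nsmce1 (distance 0.24), Pgk1 (0.30) and Hist1h2bk (0.30). Pgk1, a glycolytic enzyme, was at 0.45, 1.06, 1.88 and 0.75 relative to non-UV skin in non-lesional, perilesional, lesional and GZ21T lesional skin, where Nqo1 was at 0.21, 1.01, 1.98 and 0.62. Nearest to Gclm were Eya2 (distance 0.15), Qsox1 (0.24) and Pdss1 (0.28), and nearest to Slc7a11 were Cenpa (0.31), 4933426M11Rik (0.39) and Bard1 (0.40).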

How the data were processed

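Libraries of total RNA came from a stranded kit, as the protocols in the labels state. The submitters' processing notes name Trim Galore, DESeq2 and the build GRCm38 (mm10). For the aligner, counter, annotation and model formula, the status is: not given in the sources used here. There are 4 tables deposited by the authors, each with a log2 fold change, a Wald statistic (a score, the fold change over its SE) and a p-value with its Benjamini-Hochberg adjusted p-value, per the file headers. No counts or values per library were used, and 0 such columns were left unused. The SE was computed as fold change over Wald statistic.

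Symbols turned into dates were removed. The table named for perilesional and lesional skin has a header for lesional over back. Of 1195 genes at 0 in perilesional over non-lesional skin, 271 were negative in it, so perilesional skin cannot be its reference, and it was used as its header says. Of 1003 genes at 0 there, 253 were positive and 0 negative under GZ21T once the sign of that table was turned. The group named back is taken as the non-UV group by elimination.

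Further contrasts were sums of deposited fold changes, assuming 1 fit with the group alone. Under that assumption their variance was exact for lesional over perilesional and GZ21T over non-lesional skin. Otherwise it was an upper bound, the sum of both squared SEs, and an alternative halved that sum. The halved sum equals the exact variance when the groups vary alike. Normal p-values were adjusted over all genes with an adjusted p in the tables used. The derivation was tested on simulated data with the same variance in every group, which cannot show that the variance holds in these data. The members and the 11 context and 12 marker lists were chosen with earlier results of these data known. Named genes are the 10 members, up to 4 called genes with the smallest adjusted p per list and comparison, fixed regulators, and 3 nearest genes for the 3 members of widest range. A further gene that this rule names is not reported here. Txnrd2, Txnrd3, Hmox2, Nqo2, Eid3 and Ikbkg were added as relatives or overlapping genes, and some marker genes were named beside their lists. Python 3.11.15, pandas 2.3.3 and scipy 1.17.1 were used.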

Additional observations from a re-analysis of the deposited data

How the results depend on the processing

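Alternatives covered centring on the median, the null spread of the genes, other filters and thresholds, and other variances of derived contrasts. In lesional over non-UV skin the count of 4 called genes was 0 with the null spread from the genes and 2 when a log2 fold change of at least 1 was asked. At that fold change 9.88% of all genes were called. Under GZ21T the count of 1 was 0 with the null spread from the genes, 0 with no filter on low counts, 0 with a log2 fold change of at least 1 and 3 at an adjusted p under 0.1. With no filter, with that fold change and at an adjusted p under 0.1, the shares of all genes were 1.11%, 1.73% and 10%. With the summed variance of both fold changes halved, the counts of 0 in lesional over non-lesional, perilesional over non-UV and GZ21T lesional over non-UV skin became 1 each. The shares of all genes called there rose as well, from 0%, 0.687% and 0.606% to 5.11%, 9.62% and 4.89%. All-gene counts with the null spread of the genes were 14 in lesional over non-UV skin and 0 under GZ21T. Centring reversed values near 0. G6pdx and Mafk in lesional over non-UV skin went to -0.0349 and -0.0613, Mafk under GZ21T to 0.0408, Gclm in lesional over perilesional skin to -0.0170, Slc7a11 in lesional over non-lesional skin to -0.0545, and Nfe2l2 in perilesional over non-UV skin to -0.00152. Apart from the causes built into each alternative, the cause was not tested. No paired analysis was possible because the tables hold no values per library, although the placebo sites share replicate numbers, and for the same reason no library could be left out. Depth is unknown, so the SE alone limits what could be detected.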
